A study of Mus musculus with 30 samples.

Results

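The intermediate filament genes *Gfap*, *Nes* and *Vim* are used as markers of reactive glia, and their mRNA was followed through post-operative ileus in enteric glia and in the gut muscle layer around them. They are 3 of 26179 genes in the *RiboTag* tables and 3 of 24601 genes in the table of total RNA, and they were taken by name, with their values playing no part. Mice underwent intestinal manipulation (IM) of the small bowel, and the *muscularis externa* (*ME*) was taken 3 h (IM3h), 24 h (IM24h) or 72 h (IM72h) later or from naïve mice without surgery. *RiboTag* libraries hold mRNA bound to ribosomes whose protein RPL22 carries an HA tag in cells with an active Cre recombinase, and *ME* libraries hold the total RNA of the lysate. The tables hold 3 naïve and 4 IM3h, 4 IM24h and 4 IM72h *RiboTag* libraries, and 3 naïve, 3 IM3h, 4 IM24h and 4 IM72h *ME* libraries. All *RiboTag* mice came from B6 Tg(Sox10-icre/ERT2)388Wdr/J parents, with a tamoxifen-dependent Cre under the *Sox10* promoter, crossed to the tagged line B6N.129 Rpl22tm1.1Psam/J. The labels give the same cross for *ME* at IM24h and IM72h. For naïve *ME* and *ME* at IM3h they give B6.Cg-Tg73.12Mvs/J(Gfap-cre) mice as the Cre parent, in which Cre follows the promoter of *Gfap* itself. In total *ME* RNA the mouse line and the time point therefore cannot be told apart when IM24h or IM72h is set against naïve mice or IM3h, while IM3h against naïve and IM72h against IM24h stay within a single line. By the study's methods the mice were males of 10 to 12 weeks, Cre was induced with tamoxifen on 3 consecutive days a week before the experiment, and the *Sox10* line was also crossed to a tdTomato reporter, which the labels do not name.

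Intermediate filaments are ropes of coiled-coil proteins that give a cell its mechanical strength and shape. *Gfap* encodes glial fibrillary acidic protein, the filament of mature astrocytes and of many enteric glia. *Nes* encodes nestin, a filament protein of neural progenitors and of reactive astrocytes that assembles only together with a partner such as vimentin, and that is also made by endothelial cells. *Vim* encodes vimentin, the filament protein of mesenchymal cells, which is made by fibroblasts, endothelium, leukocytes and glia alike. A joint rise of these proteins is a classical sign of gliosis in the brain, and the question here was how far each mRNA moved in enteric glia and in the tissue.

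In the mm10 annotation *Gfap* lies on the minus strand at chr11:102887336-102900912, *Nes* on the plus strand at chr3:87971078-87980451 and *Vim* on the plus strand at chr2:13573927-13582826. *Gfap* is overlapped over its whole length by the lincRNA *Gm26668* of the other strand, at chr11:102863337-103075903, which neither set of tables lists. The libraries read the 3′ end of mRNA, and *Gfap* has alternative 3′ ends that such reads can tell apart. The transcript Gfap-201 ends in exon 9, and Gfap-202 ends in an exon 8 of its own that lies between exons 7 and 8 of Gfap-201, so that the proteins differ in their last residues. The coding parts of these last exons are shown since a later result rests on them, read from the reference genome GRCm38.p6 on the minus strand with the stop codon in capitals. They lie at chr11:102888677-102888721 for Gfap-201 and chr11:102891396-102891520 for Gfap-202.
Gfap-201: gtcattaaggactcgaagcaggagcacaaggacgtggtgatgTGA
Gfap-202: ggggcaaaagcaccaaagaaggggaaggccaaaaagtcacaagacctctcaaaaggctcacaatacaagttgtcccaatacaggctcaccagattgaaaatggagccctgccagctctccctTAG

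*Gfap* and *Nes* rose at IM3h in both fractions and *Vim* in *ME*, so the 250 bases before each start are shown. They are from RefSeq (GRCm38.p6), at chr11:102897201-102897450 on the minus strand for *Gfap*, chr3:87970843-87971092 on the plus strand for *Nes* and chr2:13574061-13574310 on the plus strand for *Vim*. They were searched on both strands for TTCNNNGAA (STAT factors), TGANTCA (AP-1), TGACGTCA (cAMP response element), TGACG (its shorter form, contained in the former) and GGGCGG (GC box), and capitals mark each match.
Gfap: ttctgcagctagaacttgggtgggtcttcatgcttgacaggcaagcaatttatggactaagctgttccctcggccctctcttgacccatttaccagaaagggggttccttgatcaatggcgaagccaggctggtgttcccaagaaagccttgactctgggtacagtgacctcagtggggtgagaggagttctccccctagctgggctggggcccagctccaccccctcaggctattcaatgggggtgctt
Nes: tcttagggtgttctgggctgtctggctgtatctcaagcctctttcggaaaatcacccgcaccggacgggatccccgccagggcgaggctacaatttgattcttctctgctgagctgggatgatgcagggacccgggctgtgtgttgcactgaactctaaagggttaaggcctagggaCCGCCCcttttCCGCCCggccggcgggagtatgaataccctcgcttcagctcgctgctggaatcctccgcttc
Vim: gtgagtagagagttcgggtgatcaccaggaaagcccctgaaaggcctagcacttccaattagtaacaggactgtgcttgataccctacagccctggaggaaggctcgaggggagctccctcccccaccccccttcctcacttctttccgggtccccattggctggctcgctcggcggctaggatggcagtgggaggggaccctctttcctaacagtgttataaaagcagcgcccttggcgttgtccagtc

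The only matches were 2 GC boxes on the minus strand of the *Nes* window, 73 to 68 and 62 to 57 bases before the start, and 32.7% of all 32851 windows of this length hold a GC box. The letters of STAT factors were found in 7.02% of windows, those of AP-1 in 6.75%, the cAMP response element in 1.55% and its shorter form in 17.8%. After this search the windows were extended to 50 bases past the start, which was chosen with the first result known. The *Gfap* window then held TTCCAGGAA at chr11:102897194-102897202, crossing the start used by RefSeq from 2 bases before it, and 8.3% of all windows of 300 bases hold such a match.

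Library totals ran from 3010306 to 7899493 estimated counts in *RiboTag* and from 6603170 to 12866062 in *ME*. A single gene of ribosomal RNA origin, *AY036118*, took 2.02% to 14.0% of the counts in naïve and IM3h *RiboTag* libraries, 22.2% to 59.2% at IM24h and 58.0% to 80.1% at IM72h. There 8644 to 11416 genes had at least 1 count, against 15732 to 19331 in naïve and IM3h libraries. In *ME* the share of *AY036118* moved the other way, from 16.1% to 33.5% in naïve mice and 24.1% to 25.1% at IM3h to 1.33% to 6.5% at IM24h and 2.34% to 3.69% at IM72h. What this share means for the late *ME* values was not tested. The glial label of these late libraries was checked on their markers. *Sox10*, whose promoter drives the Cre, was at 486, 1038 and 574 CPM (counts scaled to a common library size) in naïve *RiboTag* and at 11.9, 2.64, 0 and 1.23 CPM at IM72h, while *S100b* was at 704, 430 and 532 CPM and at 1027, 101, 762 and 1077 CPM, so the 2 glial markers went apart. Of the 10 glial genes 6, 2, 6 and 6 had no count in IM72h libraries 1 to 4, and *Sox2* had none in any of them. The median log2 change of the 10 genes at IM72h was -2.64, against -0.40 over all genes. Of them 3 were called lower and 0 higher, where 16.1% of all genes were called. At IM24h, *RiboTag* libraries 2 and 3 stood apart with 38.0 and 53.7 CPM of *Sox10* and the 2 highest *AY036118* shares of their group. Results that rest on the late *RiboTag* libraries are given below with their values per library. Fits without rRNA genes, *AY036118* among them, left 40 results of the 3 genes over all comparisons unchanged in sign and call and reversed the sign of 2. What a high share of *AY036118* means for the values of these libraries, and the part of glial identity in them, was not tested.

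In naïve mice all 3 genes were higher in *RiboTag* than in *ME*, against 26% of 14753 genes called in either direction. The difference was largest for *Gfap*, 11.1-fold (log2 difference 3.47 ± 0.26 SE, adjusted p = 0.000104), and smaller for *Nes*, 6.54-fold (2.71 ± 0.31, adjusted p = 0.000599), and *Vim*, 2.09-fold (1.07 ± 0.21, adjusted p = 0.00662). These are edgeR's quasi-likelihood tests with Benjamini-Hochberg adjustment over all genes, as are all adjusted p-values below unless named otherwise. Of the 10 glial marker genes 9 were higher in *RiboTag* and 0 lower. Their median log2 difference was 3.15, against -0.01 over all genes. Of the 8 smooth muscle genes 6 were lower in *RiboTag* and 0 higher. They still summed to 5220 to 8070 CPM in naïve *RiboTag*, against 1750 to 2160 CPM for the glial genes, so these libraries also hold RNA of muscle. The fractions came from different mouse lines by the labels.

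Counts of the 3 genes called in each comparison with naïve mice are as follows. At IM3h, 2 of the 3 genes were called in *RiboTag*, where 13.3% of 16053 genes were called in either direction, and 3 of the 3 in *ME*, where 32.7% of 15333 genes were. At IM24h, 1 of the 3 was called in *RiboTag*, where 0.497% of 15304 genes were, and 2 of the 3 in *ME*, where 29% of 16328 genes were. At IM72h, 0 of the 3 were called in *RiboTag* by edgeR's quasi-likelihood test, where 16.1% of 13572 genes were, and 3 of the 3 in *ME*, where 57.5% of 16592 genes were. At an unadjusted p under 0.05 all 3 differed at IM72h in *RiboTag*, *Nes* upward and *Gfap* and *Vim* downward, as did 3063 of the 13572 genes tested. DESeq2 called *Nes* there. The time points of a fraction share the same naïve libraries.

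**Figure D1:**
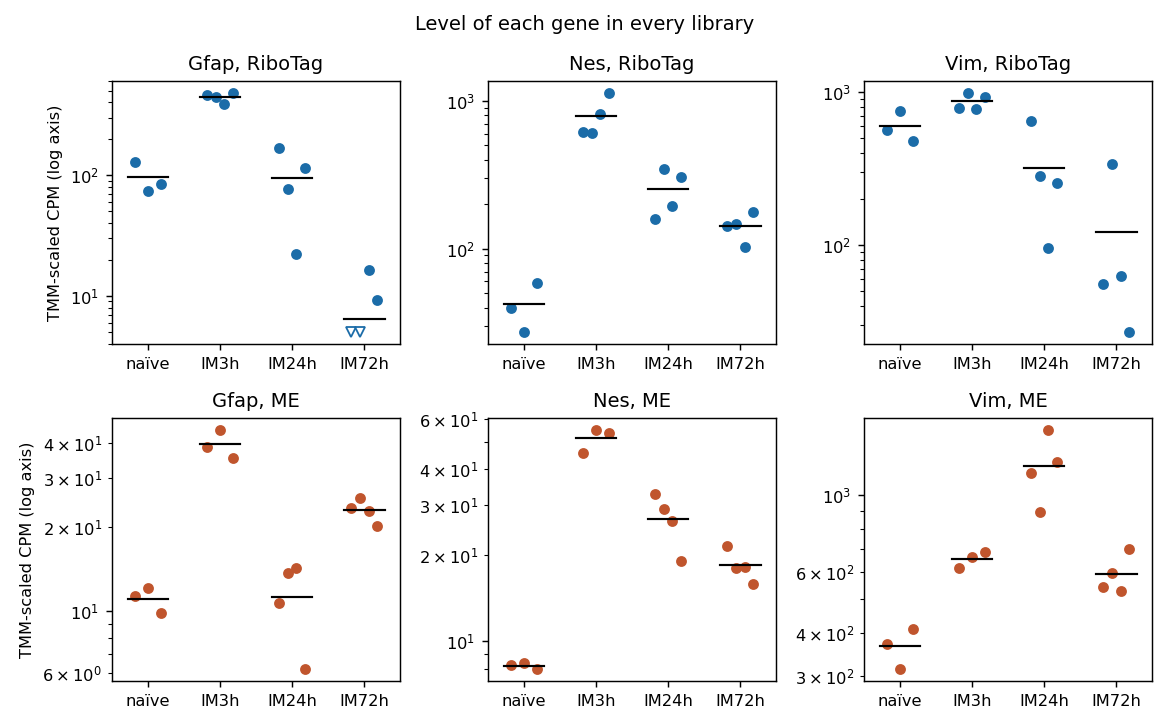
TMM-scaled CPM on a log axis (each panel with its own range) for *Gfap*, *Nes* and *Vim* in every *RiboTag* (upper row) and *ME* library (lower row); points are libraries, black lines are group means, and open triangles at the foot of the *Gfap* panel are the 2 IM72h libraries without a count. All IM3h libraries lie above all naïve libraries for each gene, *Nes* is above naïve at every time point on this scale, and *Vim* in *ME* is highest at IM24h.

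*Nes* showed the largest rise of the 3 genes at IM3h, and its libraries lay above naïve ones at IM3h and IM24h in both fractions. At IM72h this held in *ME*, while in *RiboTag* it depended on the scaling. In naïve *RiboTag* libraries it was at 39.6, 27.2 and 59.0 CPM, scaled by trimmed means over all libraries of the fraction. The 4 IM3h libraries held 615, 602, 813 and 1129 CPM. Those of IM24h held 160, 347, 194 and 307 CPM, and those of IM72h 143, 147, 103 and 177 CPM. On this scale every library after IM lay above every naïve library, and the IM3h libraries lay above all others, while those of IM24h and IM72h overlapped. As CPM of the library total, which holds the *AY036118* counts, the IM72h libraries were at 84.8, 86.3, 32.1 and 95.3 and the naïve ones at 63.2, 49.9 and 102, so that these groups overlapped. The rise at IM3h was 19.6-fold (log2 fold change 4.29 ± 0.38 SE, n = 4 against 3, adjusted p = 4.36e-05), a change exceeded by 1.4% of genes. At IM24h it was 6.11-fold (2.61 ± 0.44, adjusted p = 0.0219), and it stood without IM24h libraries 2 and 3 (2.5, adjusted p = 0.0357). The call was lost without naïve library 1, 2 or 3 (adjusted p = 0.151, 0.206 and 0.146) or IM24h library 2 or 4 (0.096 and 0.119), by library totals (1.62, 0.281) and with scaling by 3 reference genes (0.98, 0.398). At IM72h *Nes* stood at 3.44 times the naïve level without passing the test (1.78 ± 0.60, adjusted p = 0.078). It passed in the joint fit of all time points (1.76, adjusted p = 0.0337) and with DESeq2 (1.92, 0.0206), and the difference was 0.06 by library totals and 0.10 with scaling by 3 reference genes, neither of which passed. From IM3h to IM24h it fell to 0.332 times (log2 -1.59 ± 0.37, adjusted p = 0.046). Here 1.9% of 14193 genes were called, among them 2 of the 3 filament genes, and leaving out any of the 8 libraries ended this call (adjusted p 0.0514 to 0.14). From IM24h to IM72h no gene was called by edgeR (0% of 9344, with 590 at an unadjusted p under 0.05), 1 under median-of-ratios scaling and 108 by DESeq2, and the value of *Nes* was -0.77 ± 0.53 with an unadjusted p of 0.164.

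In total *ME* RNA *Nes* followed the same order of time points. It was at 8.22, 8.40 and 7.99 CPM in naïve *ME* and at 45.8, 55.0 and 53.7 CPM at IM3h. The IM24h libraries held 32.8, 28.9, 26.4 and 19.1 CPM and those of IM72h 21.6, 17.99, 18.2 and 15.9 CPM. Naïve libraries differed by less than 1 CPM and lay below all others. The rise was 6.49-fold at IM3h (log2 2.70 ± 0.15, adjusted p = 9.53e-07), 3.26-fold at IM24h (1.70 ± 0.23, adjusted p = 0.00063) and 2.2-fold at IM72h (1.14 ± 0.16, adjusted p = 0.000155). From IM3h to IM24h *Nes* fell (log2 -0.90 ± 0.20, adjusted p = 0.00747, against 27.6% of 16199 genes called), but by library totals the change was -0.10 (adjusted p = 0.711). Within the *Sox10* line it fell again from IM24h to IM72h (-0.58 ± 0.19, adjusted p = 0.0334, against 38.5% of 16281 genes called), a call that ended without IM24h library 1, 2 or 3 or IM72h library 2, 3 or 4 (adjusted p 0.0569 to 0.0954) and without a filter on low counts (0.07).

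Nestin is also a product of endothelial cells, so their markers were read beside it. In *RiboTag* the summed level of the 8 endothelial genes was 49.4 to 60.0 CPM in naïve mice, 37.3 to 59.5 CPM at IM3h, 63.8 to 199 CPM at IM24h and 64.2 to 143 CPM at IM72h, where *Kdr* was at 0. At IM3h 0 of the 7 endothelial genes tested in *RiboTag* were higher and 1 was lower, a share near the 13.3% of all genes called, with a median log2 change of -0.65 against -0.04 over all genes, while *Nes* rose 19.6-fold. In *ME* the sum was 51.0 to 53.7 CPM in naïve mice, 71.3 to 94.0 CPM at IM3h, 81.1 to 118 CPM at IM24h and 113 to 130 CPM at IM72h, and 2, 4 and 7 of 8 genes were higher at these times with 0 lower (over all genes 32.7%, 29% and 57.5% were called in either direction). The part of endothelium in the values of *Nes* was not tested in either fraction or at any time. In such bulk libraries more cells of a type and more RNA per cell cannot be told apart.

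*Gfap* rose at IM3h in both fractions and then took a different course in each. In *RiboTag* it was at 129, 73.5 and 84.1 CPM in naïve libraries and at 458, 441, 387 and 479 CPM at IM3h, with no overlap. At IM24h it was at 167, 76.4, 22.2 and 114 CPM, of which 1 library lay above, 2 within and 1 below the naïve range. At IM72h it was at 0, 0, 16.3 and 9.23 CPM, which is 0, 0, 17 and 15 counts, and a count of 0 allows up to 0.848 and 0.778 CPM of the library total in these 2 libraries (counting error only). The rise at IM3h was 4.8-fold (log2 2.26 ± 0.27 SE, adjusted p = 0.000314), and its call was lost in the joint fit of all time points (2.21, adjusted p = 0.769). At IM24h the difference was 0.04 ± 0.55 on the log2 scale (adjusted p = 0.99), and without libraries 2 and 3 it was 0.59 (0.445). At IM72h the libraries lay below all naïve libraries, and the fitted log2 difference, which depends on how counts of 0 are treated, was -3.85 ± 1.60 (adjusted p = 0.171). It passed the test by library totals (-5.99, adjusted p = 0.0267), with scaling by 3 reference genes (-5.37, 0.0443) and in the joint fit (-3.99, 0.0212), beside medians over all genes of -2.13, -2.07 and -0.55. *Gfap* fell from IM3h to IM24h (-2.14 ± 0.48, adjusted p = 0.0418), and without IM3h library 1, 2, 3 or 4 or IM24h library 2 or 4 the adjusted p was 0.0881 to 0.114.

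In *ME*, *Gfap* was at 11.4, 12.1 and 9.81 CPM in naïve libraries and at 38.6, 44.6 and 35.2 CPM at IM3h. It was at 10.6, 13.7, 14.3 and 6.2 CPM in the IM24h libraries and at 23.5, 25.4, 22.9 and 20.2 CPM in those of IM72h. The IM3h libraries lay above all others, those of IM72h above those of IM24h and of naïve mice, and the last 2 overlapped. By library totals those of IM3h and IM72h overlapped as well. The rise at IM3h was 3.71-fold (log2 1.89 ± 0.16, adjusted p = 1.91e-05). At IM24h the log2 difference was 0.02 ± 0.31 (adjusted p = 0.97). At IM72h *Gfap* was 2.04 times the naïve level (1.03 ± 0.15, adjusted p = 0.000167), and the call was lost with scaling by 3 reference genes (0.42, adjusted p = 0.0566, beside a median over all genes of -0.58). Between time points *Gfap* was lower at IM24h than at IM3h (-1.77 ± 0.27, adjusted p = 0.00126), a step that also crosses mouse lines. From IM24h to IM72h, within the *Sox10* line, it rose (0.99 ± 0.24, adjusted p = 0.0081), where *Nes* and *Vim* fell.

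*Vim* rose at each time in the tissue, whereas in the libraries labelled *RiboTag* it read lower at IM72h, where *Sox10* was nearly absent, and the call of this difference depended on the processing. In *RiboTag* it was at 565, 754 and 475 CPM in naïve libraries and at 779, 981, 773 and 928 CPM at IM3h, just above the naïve range, which they overlapped by library totals. At IM24h it was at 648, 284, 96.2 and 254 CPM and at IM72h at 56.1, 338, 63.4 and 27.1 CPM, below the naïve range in 3 of 4 and 4 of 4 libraries. None of these differences passed the test, with log2 values of 0.59 ± 0.25 at IM3h (adjusted p = 0.142), -0.86 ± 0.52 at IM24h (0.545, and -0.37 without libraries 2 and 3) and -2.33 ± 0.76 at IM72h (0.0682). Without IM72h library 2, the 338 CPM library, the value at IM72h was -3.7 (adjusted p = 0.019). With all libraries it passed by library totals (-3.95, adjusted p = 0.017), with scaling by 3 reference genes (-3.99, 0.018) and in the joint fit (-2.30, 0.0377). From IM3h to IM24h it was -1.36 ± 0.47 (adjusted p = 0.17), and without IM24h library 1 it was -1.99 (0.0251).

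In *ME*, *Vim* was at 372, 314 and 411 CPM in naïve libraries and 616, 661 and 683 CPM at IM3h. The IM24h libraries held 1160, 891, 1547 and 1249 CPM and those of IM72h 543, 594, 527 and 697 CPM. All libraries after IM lay above the naïve ones, and those of IM24h above the rest. *Vim* rose 1.85-fold at IM3h (log2 0.88 ± 0.12, adjusted p = 0.000336), 3.3-fold at IM24h (1.72 ± 0.22, adjusted p = 0.000429) and 1.58-fold at IM72h (0.66 ± 0.14, adjusted p = 0.00214), the last of which was lost with scaling by 3 reference genes (0.06, adjusted p = 0.808). It rose from IM3h to IM24h, where *Gfap* and *Nes* fell (0.93 ± 0.20, adjusted p = 0.0068, and 0.91 with an adjusted p of 0.116 under scaling by 3 reference genes), and fell to IM72h (-1.07 ± 0.18, adjusted p = 0.00103).

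Cells of other types that make vimentin moved beside these values. In *ME* the summed level of 8 macrophage genes was 192 to 200 CPM in naïve mice, 158 to 179 CPM at IM3h, 396 to 580 CPM at IM24h and 1180 to 1470 CPM at IM72h, and that of 8 monocyte and neutrophil genes was 11.5 to 13.3, 46.2 to 70.1, 268 to 570 and 137 to 199 CPM. Fibroblast genes summed to 2880 to 3030, 1420 to 1650, 1870 to 4240 and 4470 to 5310 CPM. Smooth muscle genes, which summed to 23100 to 24700 CPM in naïve mice and 17100 to 20400 CPM at IM3h, were at 3430 to 11300 CPM at IM24h, when *Vim* was highest and 6 of 8 were lower, and at 13200 to 21600 CPM at IM72h. Monocyte and neutrophil genes peaked with *Vim* at IM24h, when 7 of 7 tested were higher, and macrophage genes later, at IM72h, when 8 of 8 were higher. In *RiboTag*, fibroblast genes summed to 1040 to 1310 CPM in naïve mice and 397 to 586 CPM at IM3h with 4 of 8 lower, and mesothelial genes to 112 to 290 and 10.8 to 73.2 CPM with 4 of 5 lower, when *Vim* was above its naïve range. In the late *RiboTag* libraries monocyte and neutrophil genes summed to 68.3 to 136 CPM at IM24h and 16.0 to 198 CPM at IM72h, against 7.68 to 15.6 CPM in naïve mice, with 0 of 4 and 0 of 3 tested called. Fibroblast genes there summed to 495 to 1480 and 670 to 1890 CPM, with 0 of 8 called at either time. Smooth muscle genes there summed to 1520 to 4250 and 2130 to 9210 CPM against 5220 to 8070 CPM, with 3 and 1 of 8 lower and 0 higher. Macrophage genes there summed to 155 to 275 and 271 to 473 CPM against 89.7 to 167 CPM, with 0 of 7 and 1 of 7 tested higher. These counts stand against shares over all genes of 29% and 57.5% called at IM24h and IM72h in *ME* and of 13.3%, 0.497% and 16.1% called in *RiboTag* in order of time. The part of these cells in the values of *Vim* was not tested.

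**Figure D2:**
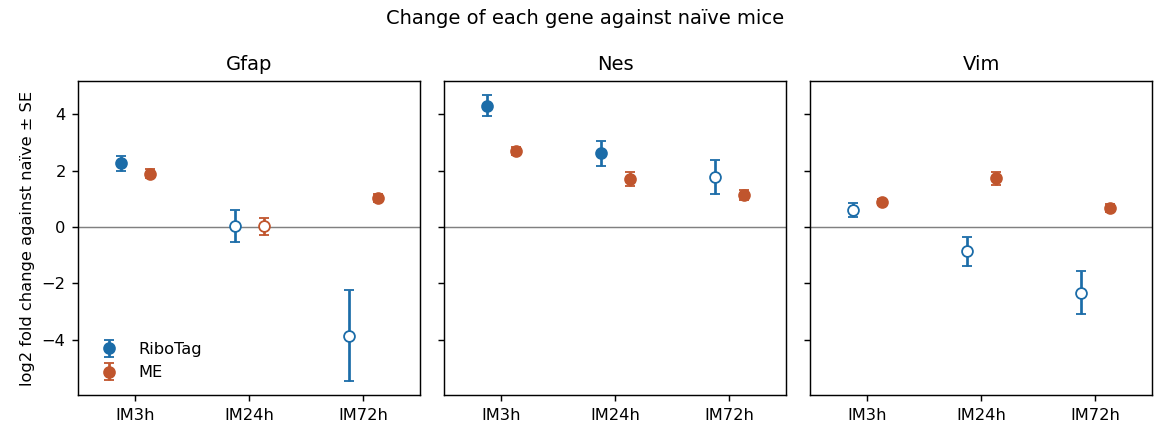
Log2 fold change against naïve mice with its standard error for *Gfap*, *Nes* and *Vim* at each time point in *RiboTag* (blue) and *ME* (orange); filled points have an adjusted p under 0.05 and open points do not. The fractions lie close at IM3h for *Gfap* and *Vim*, and at IM72h *Gfap* and *Vim* are below 0 in *RiboTag* and above 0 in *ME*.

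Whether a gene changed more in the glial fraction than in the tissue was tested as the interaction of fraction and time point. By the study's methods total RNA was kept back from lysates used for precipitation, so at IM24h and IM72h, where the labels give the same cross, libraries of both fractions may come from the same mice. No name in the tables ties them, and the test took them as independent. By the labels naïve and IM3h *ME* mice were of the *Gfap*-Cre line and all *RiboTag* mice of the *Sox10* line. Fraction and mouse line therefore cannot be told apart at IM3h, and at IM24h and IM72h the *ME* change itself crosses the lines. At IM3h the change of *Nes* was larger in *RiboTag* by 1.69 ± 0.40 on the log2 scale (adjusted p = 0.0456, against 1.66% of 17617 genes called), whereas the differences of *Gfap* (0.47 ± 0.30, adjusted p = 0.526) and *Vim* (-0.20 ± 0.27, adjusted p = 0.83) did not pass. The call of *Nes* was lost with median-of-ratios scaling (1.63, adjusted p = 0.0574) and with 3 reference genes (1.49, 0.184), and without naïve *RiboTag* library 1 or 2, IM3h *RiboTag* library 3 or any of the 6 *ME* libraries (0.0727 to 0.139), with values between 1.45 and 1.72. At IM24h 0 of the 3 differences passed edgeR's test, with 0.537% of 17508 genes called. Of the 17508 genes 2357 had an unadjusted p under 0.05, among them 1 of the 3, *Vim* (-2.56 ± 0.62, adjusted p = 0.0851). It passed without IM24h *RiboTag* library 1 (-3.4, adjusted p = 0.00196) or 3 (-2.25, 0.0251), by library totals (-3.85, 0.0376) and with DESeq2 (-2.58, 0.00565).

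At IM72h the changes of *Gfap* and *Vim* were lower in *RiboTag* than in *ME*, by -5.35 ± 1.60 (adjusted p = 0.026) and -3.13 ± 0.98 (adjusted p = 0.033), while that of *Nes* was 0.36 ± 0.58 (adjusted p = 0.742). In this comparison 23.3% of 16527 genes were called and the median over all genes was -0.98, so most genes read lower in the late *RiboTag* libraries. The call of *Gfap* ended under median-of-ratios scaling (-4.59, adjusted p = 0.0679) and without naïve *RiboTag* library 1 or any of the 3 naïve *ME* libraries (0.0569 to 0.0758), and that of *Vim* without naïve *RiboTag* library 1 or 2, any of the 3 naïve *ME* libraries or IM72h *ME* library 1, 2 or 4 (0.0506 to 0.0857).

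Ratios of 2 genes within a library do not depend on how libraries are scaled. The log2 ratio of *Nes* to *Vim* counts was -3.83, -4.79 and -3.01 in naïve *RiboTag* libraries, between -0.71 and 0.28 at IM3h, between -2.02 and 1.01 at IM24h and between -1.21 and 2.69 at IM72h. All *RiboTag* libraries after IM thus held more *Nes* per *Vim* than any naïve library, by 3.70, 3.76 and 4.76 in the mean log2 ratio (exact permutation test, two-sided, p = 0.0286, 0.0571 and 0.0571). The adjusted p was 0.103 for each over 18 tests, and 0.0286 is the smallest p that 3 against 4 libraries can give. In *ME* the ratio was -5.49, -5.21 and -5.67 in naïve libraries and -3.75, -3.58 and -3.67 at IM3h, higher by 1.79 (exact permutation p = 0.1, the smallest that 3 against 3 libraries can give), but at IM24h it differed from naïve by -0.04 (exact permutation p = 0.886, adjusted 0.886). None of the 18 tests passed an adjusted p of 0.05.

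The ratio of *Gfap* to *Vim* in *RiboTag* was -2.66 ± 0.63 (SD, n = 3) in naïve mice and -0.97 ± 0.16 (SD, n = 4) at IM3h. The IM24h mean was -1.78 ± 0.42 (SD, n = 4), and neither time overlapped with naïve. At IM72h it was -7.89 and -10.6 in the libraries without *Gfap* counts and -1.93 and -1.52 in the others. In *ME* it was above all naïve libraries at IM3h (-3.99, -3.89 and -4.27 against -5.02, -4.69 and -5.38) and lay below them at IM24h (between -7.64 and -6.02). The ratio of *Nes* to *Gfap* was above naïve in all *RiboTag* libraries after IM, with -1.22 ± 0.63 (SD, n = 3) in naïve mice and 0.80 ± 0.42 (SD, n = 4) at IM3h. In *ME* it was -0.43 ± 0.12 (SD, n = 3) in naïve mice and 0.39 ± 0.19 (SD, n = 3) at IM3h. Its IM24h mean was the highest, 1.30 ± 0.38 (SD, n = 4). The 4 IM72h libraries stood at -0.12, -0.50, -0.33 and -0.34, of which 3 lay in the naïve range.

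**Figure D3:**
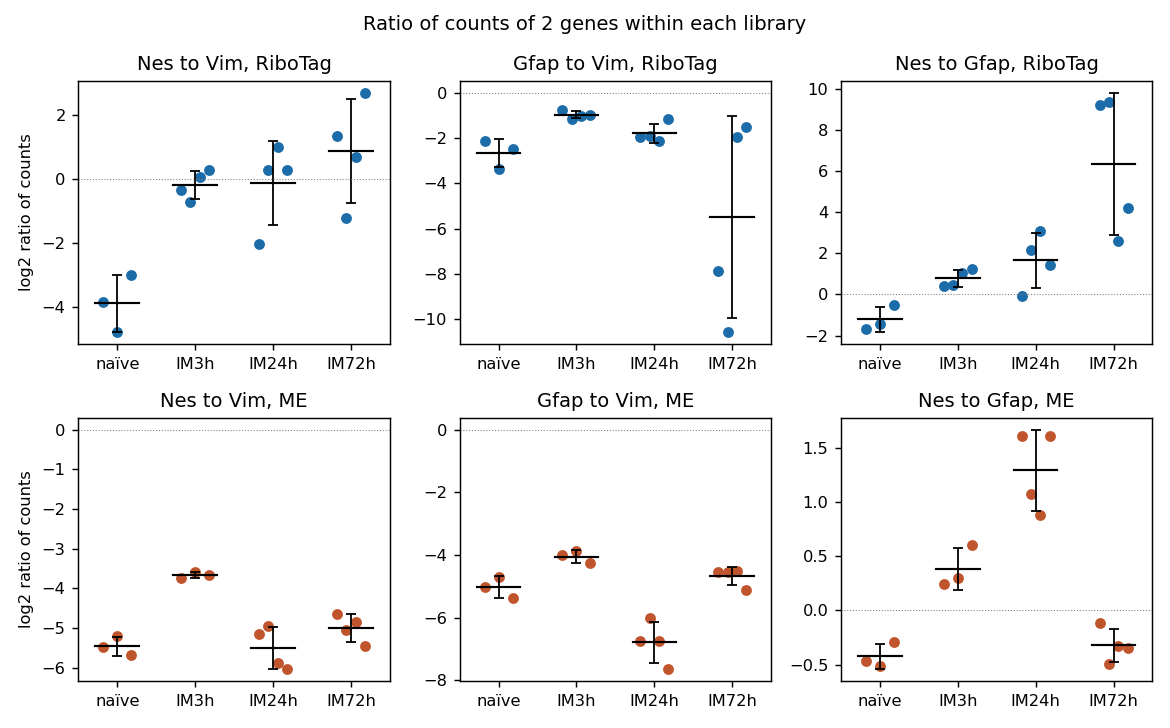
Log2 ratio of the counts of 2 genes within each library (count + 0.5) for *Nes* to *Vim*, *Gfap* to *Vim* and *Nes* to *Gfap* in *RiboTag* (upper row) and *ME* (lower row); points are libraries, bars are mean ± SD, and the dotted line marks equal counts. In *RiboTag* all libraries after IM lie above naïve for *Nes* to *Vim* and *Nes* to *Gfap*, and in *ME* the ratio of *Gfap* to *Vim* is lowest at IM24h.

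Relative to the geometric mean of 10 glial genes of the same library (among them *Sox10*, *S100b*, *Erbb3* and *Foxd3*), *Nes* was above its naïve range at IM3h and IM24h in both fractions. In *RiboTag* its log2 ratio was -1.10, -1.59 and -0.24 in naïve libraries and 3.20, 3.56, 4.58 and 4.65 in those of IM3h. It was 1.77, 4.29, 4.18 and 3.44 in the IM24h libraries (differences of 4.97 and 4.40 from naïve in order of time, each with an exact permutation p of 0.0286 and an adjusted p of 0.0643). In the IM72h *RiboTag* libraries 6, 2, 6 and 6 of the 10 glial genes had no count, so that their mean is largely set by the 0.5 added to each count, and nothing is read from the ratios at that time. In IM24h *RiboTag* library 3 it was 3 of the 10, and in IM24h library 2 and IM3h libraries 3 and 4 it was 1 of the 10. Of the glial genes 3 of 10 were called lower at IM72h in *RiboTag* and 7 were not called, against 16.1% of all genes called, with a median log2 change of -2.64 against -0.40 over all genes. *Gfap* lay above naïve against them by 2.96 at IM3h (exact permutation p = 0.0286, adjusted 0.0643) and lay 1.52 above naïve at IM24h (exact permutation p = 0.0571, adjusted 0.0857). The glial genes themselves had a median log2 change of -0.52 at IM3h and -1.03 at IM24h, against -0.04 and -0.11 over all genes. These ratios thus also move with the glial genes, and the log2 difference of *Gfap* itself was 0.04 at IM24h. *Vim* stood 1.27 above naïve at IM3h (exact permutation p = 0.0571, adjusted 0.0857). At IM24h its difference was 0.63, with overlap.

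In *ME* the mean ratio of *Gfap* was -0.07 ± 0.29 (SD, n = 3) in naïve mice and 2.17 ± 0.15 (SD, n = 3) at IM3h. It then was 0.31 ± 0.75 (SD, n = 4) at IM24h, overlapping naïve. Among the 18 tests none passed an adjusted p of 0.05, since the smallest was 0.0643. At IM72h the difference from naïve was 1.26 for *Gfap*, 1.36 for *Nes* and 0.90 for *Vim* against the 10 genes, without overlap, and 0.32, 0.42 and -0.03 against *Sox10* and *S100b* alone. The size of these values and the sign of that of *Vim* thus turned on the glial genes used, and no direction is read from them. The glial genes did not move together in *ME*. *Sox10* was at 18.7, 15.9 and 14.8 CPM in naïve *ME* and at 74.9, 102, 139 and 33.3 CPM at IM72h, where *S100b* was at 18.8, 25.6, 25.2 and 19.5 CPM against 38.0, 34.9 and 41.0 CPM. *Sox10* is also the gene whose promoter the transgene of the late *ME* mice carries, and line and time cannot be told apart there.

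**Figure D4:**
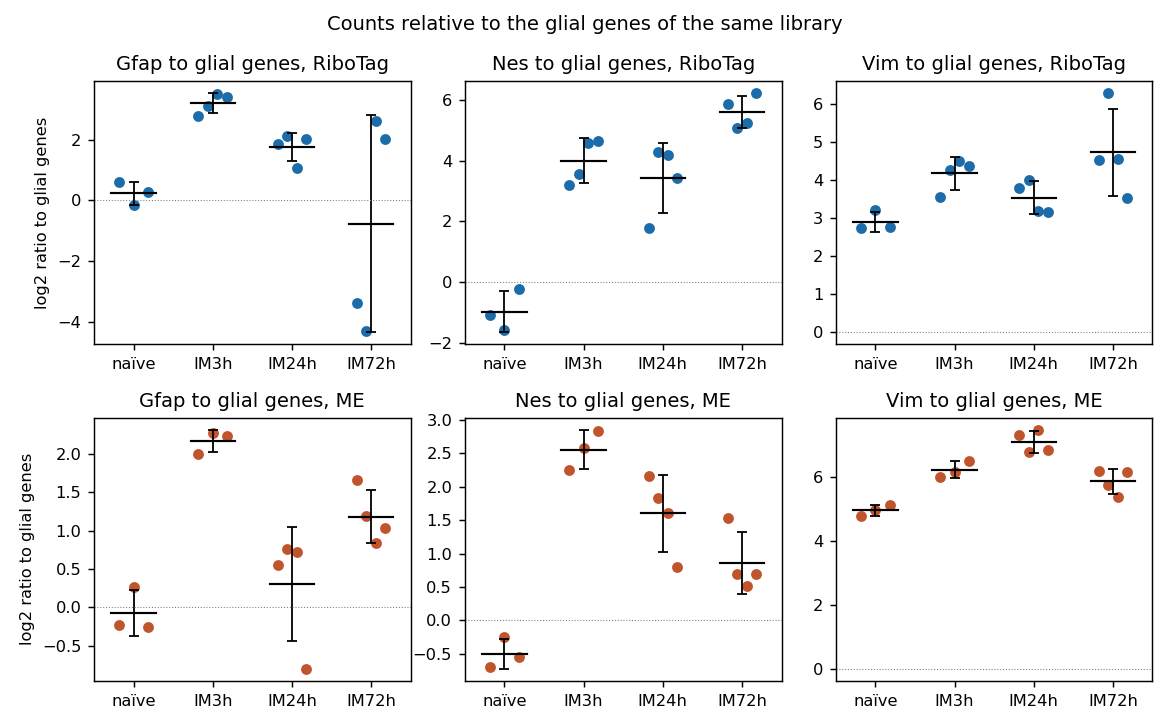
Log2 ratio of *Gfap*, *Nes* and *Vim* counts to the geometric mean of 10 glial genes in the same library (count + 0.5), in *RiboTag* (upper row) and *ME* (lower row); points are libraries, bars are mean ± SD, and each panel has its own range. *Nes* lies above its naïve libraries at IM3h and IM24h, and at IM72h in *RiboTag*, where 2 to 6 of the 10 glial genes had no count, the ratios rest largely on the added 0.5.

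The 3′ ends of *Gfap* shown above were used in different proportions. In *RiboTag* the transcript Gfap-202 took 6.49%, 22.0% and 2.13% of *Gfap* counts in naïve libraries and 15.2%, 13.6%, 9.21% and 5.56% at IM3h, so most *Gfap* counts were on Gfap-201 before and after the rise. At IM24h it took 8.65%, 0.535%, 0% and 2.01%, the third of these from 50 counts of *Gfap*, which allows a share of up to 7.11% by the exact 95% binomial interval, and these libraries overlapped the naïve ones of the same line. Counts of Gfap-201 were 951, 508 and 694 in naïve *RiboTag* and 5028, 3990, 3017 and 4839 at IM3h. In *ME* the share of Gfap-202 was 59.8% (exact 95% binomial interval 49% to 69.6%), 76.8% (63.6% to 87%) and 46.8% (35.7% to 58.3%) in naïve libraries and 44.1%, 56.2% and 42.5% at IM3h. It was 20.2%, 21.9%, 21.7% and 33.3% (21.1% to 47.5%) at IM24h and 8.63% (5.59% to 12.5%), 15.5% (11.7% to 19.7%), 9.9% and 14.0% at IM72h. The naïve and IM3h libraries, labelled with the *Gfap*-Cre line, lay above all libraries labelled with the *Sox10* line, and within the latter IM24h lay above IM72h. At IM72h in *ME*, Gfap-201 held 255, 285, 273 and 267 counts and Gfap-202 24.1, 52.3, 30 and 43.3, against 37.8, 13 and 43.1 and 56.2, 43 and 37.9 in naïve libraries, so the counts in excess of naïve were on Gfap-201. These counts are not scaled, and the library totals were 9779868 to 12866062 at IM72h and 6603170 to 9862170 in naïve *ME*. No test was set for these shares, and the intervals cover counting error only. In *ME* the mouse line and the time point cannot be told apart when IM24h or IM72h is set against IM3h or naïve mice.

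**Figure D5:**
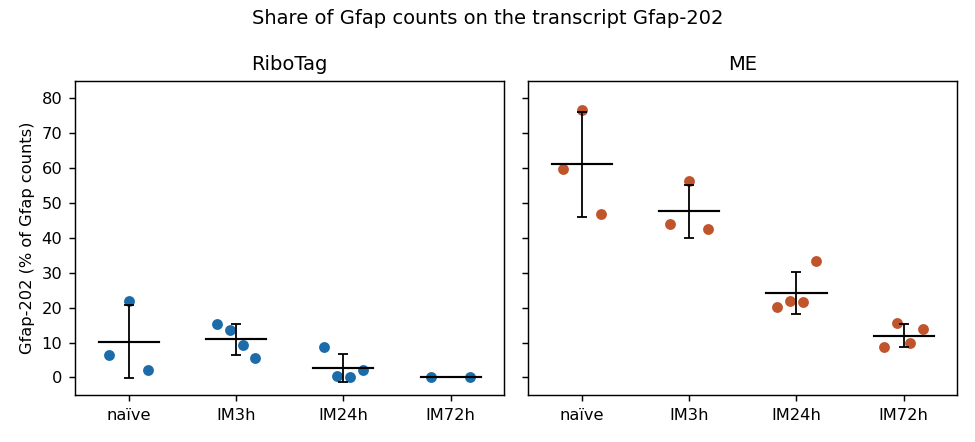
Percent of *Gfap* counts on the transcript Gfap-202 in each *RiboTag* (blue) and *ME* (orange) library; points are libraries and bars are mean ± SD, and the 2 IM72h *RiboTag* libraries without *Gfap* counts are not drawn. *RiboTag* libraries lie at or below 22.0%, and *ME* libraries go from 46.8% to 76.8% in naïve mice to 8.63% to 15.5% at IM72h.

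Other genes of the filament system did not follow the 3 genes as a group. Of 20 other intermediate filament genes, 17 were tested in *RiboTag* at IM3h, of which 2 rose and 3 fell, against 13.3% of all genes called, with a median log2 change of -0.45 against -0.04 over all genes. *Lmna*, which encodes the nuclear lamins A and C, rose (1.43 ± 0.24, adjusted p = 0.00242), as did *Iffo2* (2.09 ± 0.32, adjusted p = 0.00141), and *Krt19*, an epithelial and mesothelial keratin (-2.91 ± 0.39, adjusted p = 0.000621), *Des*, the desmin of muscle cells (-1.68 ± 0.32, adjusted p = 0.005), and *Synm*, the desmin and vimentin partner synemin (-0.76 ± 0.21, adjusted p = 0.0333), fell. In *ME* at IM3h, where 32.7% of all genes were called, 2 of 19 rose, *Lmna* (1.46 ± 0.12, adjusted p = 1.23e-05) and the neurofilament gene *Nefm* (1.56 ± 0.22, adjusted p = 0.000536), and *Krt7* fell (-2.01 ± 0.42, adjusted p = 0.00471). At IM24h 1 of 18 rose and 8 fell in *ME*, where 29% of all genes were called, among them *Des* (-2.05 ± 0.28, adjusted p = 0.000574) and *Synm* (-2.06 ± 0.28, adjusted p = 0.000632), while *Vim* rose. At IM72h 1 of 19 rose, *Lmnb1* (2.22 ± 0.16, adjusted p = 1.5e-06), a lamin, beside 8 of 8 proliferation genes that were higher, and 6 fell, where 57.5% of all genes were called.

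Among 12 genes for proteins that link or chaperone intermediate filaments, 2 rose and 0 fell in *RiboTag* at IM3h, a share near the 13.3% of all genes called there, with a median log2 change of 0.25. They were *Bag3*, a co-chaperone of damaged filaments (2.03 ± 0.26, adjusted p = 0.000499), and *Dst*, the cytolinker dystonin (1.14 ± 0.23, adjusted p = 0.00769). In *ME* at IM3h 6 rose and 3 fell, against 32.7% of all genes called, with a median of 0.54 against 0.00 over all genes, and those that rose were *Bag3* (2.22 ± 0.16, adjusted p = 6.82e-06), the small heat shock protein genes *Hspb8* (1.14 ± 0.13, adjusted p = 9.61e-05), *Hspb1* (1.14 ± 0.14, adjusted p = 0.000159) and *Cryab* (0.82 ± 0.20, adjusted p = 0.0115), *Dnajb6* and *Plec*, which encodes the linker plectin (0.56 ± 0.15, adjusted p = 0.0166). The 3 that fell, *Evpl*, *Ppl* and *Eppk1*, encode linkers of epithelial cells. In *RiboTag* 0 of 12 were called at IM24h and 0 of 11 at IM72h by edgeR's quasi-likelihood test, where 0.497% and 16.1% of all genes were called. An unadjusted p under 0.05 was held by 4 and 3 of them, and over all genes by 2015 of 15304 and 3063 of 13572. In *ME* 0 of 12 rose and 1 fell at IM24h, and 5 rose and 4 fell at IM72h, against 29% and 57.5% of all genes called.

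The gp130 receptor and its transcription factor STAT3 are known to drive *Gfap* in astrocytes, and the genes of this route were read beside the 3 filaments. In *RiboTag* at IM3h 7 of 16 tested rose and 0 fell, against 13.3% of all genes called, with a median log2 change of 1.0 against -0.04 over all genes. The ligands *Il11* (4.72 ± 0.85, adjusted p = 0.00373) and *Lif* (4.04 ± 1.06, adjusted p = 0.0262), the receptor genes *Osmr* (1.65 ± 0.49, adjusted p = 0.0423) and *Il6st*, which encodes gp130 (1.04 ± 0.28, adjusted p = 0.03), the kinase gene *Jak1* (1.34 ± 0.26, adjusted p = 0.00627), *Stat3* (1.03 ± 0.26, adjusted p = 0.0217) and the feedback inhibitor *Socs3* (3.11 ± 0.46, adjusted p = 0.00126) made up this count. In *ME* at IM3h 11 of 15 rose and 0 fell, against 32.7% of all genes called, with a median of 1.23, led by *Osmr* (3.36 ± 0.16, adjusted p = 4.2e-07), *Socs3* (5.02 ± 0.29, adjusted p = 1.66e-06) and *Stat3* (1.81 ± 0.12, adjusted p = 4.48e-06). At IM24h 0 of 14 were called in *RiboTag* by edgeR's quasi-likelihood test, where 0.497% of all genes were called. An unadjusted p under 0.05 was held by 1 of the 14 and by 2015 of the 15304 genes tested. In *ME* at IM24h 11 of 16 rose and 1 fell, against 29% of all genes called. At IM72h 0 of 12 rose and 2 fell in *RiboTag*, *Jak2* and *Cntfr*, both without a count in any IM72h library, a share near the 16.1% of all genes called, and 8 of 14 rose and 1 fell in *ME*, a share near the 57.5% of all genes called there.

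For each of the 3 genes the genes with the most similar profile over all libraries of a fraction were found by Pearson's r of log2 CPM. In *RiboTag* (15 libraries, 8168 genes compared) these were *Usp36*, *Nol12* and *Zfp36l2* for *Gfap* (r = 0.94, 0.94 and 0.93), *Nfkbia*, *Sox4* and *Ets1* for *Nes* (r = 0.96, 0.93 and 0.91) and *Cnn3*, *Cep170b* and *Hlf* for *Vim* (r = 0.97, 0.97 and 0.96). In *ME* (14 libraries, 9180 genes compared) they were *Slc41a2*, *Ing1* and *Ypel5* for *Gfap* (r = 0.97, 0.97 and 0.95), *Icam1*, *Tfrc* and *Ep400* for *Nes* (r = 0.97, 0.97 and 0.97) and *Cct3*, *Ube2q1* and *Psmd12* for *Vim* (r = 0.97, 0.95 and 0.95). The lists of the 3 genes share no gene, and no gene stands in the lists of both fractions. The libraries fall into groups by time point and share their depth and *AY036118* content, so these values describe the profiles only.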

How the data were processed

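Small bowel *ME* RNA was sequenced as 3′ end libraries. By the study's methods and processing notes, the authors used cutadapt, STAR, the mm10 genome, the Ensembl annotation and Partek Flow, and the deposited values are estimated counts, not scaled for library size. The deposited comparison tables hold the authors' own fold changes and p-values and were not used. Libraries are rows of the tables whose group is stated there. Their names match no label, library numbers follow name order, and 3 naïve *RiboTag* libraries are in the tables where the labels list 4. The study's legends count mice per condition, so libraries of a fraction were taken as separate mice. The names of *ME* libraries fall into 3 number series, for naïve and IM3h, for IM24h and for IM72h, whose meaning is not given in the sources used here and which cannot be told apart from time. *RiboTag* transcript counts were summed by symbol and all counts rounded. edgeR 4.0.16 (R 4.3.3) was used with TMM, filterByExpr and the two-sided quasi-likelihood test within the groups compared, adjusted over all genes and called under 0.05. The SE is the log2 fold change over the root of F. Ratios used count + 0.5 and exact permutation tests. The tests were tried on simulated counts with 200 changed genes. Genes named are the 3 studied, per list those called at IM3h and otherwise the 3 with the smallest p, and the 3 most alike (mean CPM of at least 10, prior count 2). Alternatives included DESeq2 1.42.0, other scalings and filters, and the study's threshold. The genes and lists were chosen with earlier results of these data known. For the ratios to glial genes, 1 marker and the ratios taken to it alone are not reported here. The counting strand is not given in the sources used here.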

Additional observations from a re-analysis of the deposited data

Results flagged for a closer look

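Of 49 groups of 4 libraries examined for a single distant library, 4 were marked, and chance marks about 1 in 20. *Vim* in the IM72h *RiboTag* libraries had a highest value of 338.3 CPM, and the gap to the next library took 0.883 of the range of the group. The log2 ratio of *Gfap* to *Vim* in *ME* at IM72h was lowest at -5.109 in library 4 (0.962 of the range), that of *Gfap* to the glial genes in *ME* at IM24h was lowest at -0.805 in library 4 (0.863), and the share of Gfap-202 in *ME* at IM24h was highest at 33.3%, also in library 4 (0.87).

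The change against naïve mice differed between *RiboTag* and *ME* by a test of the interaction for *Nes* at IM3h (1.69 on the log2 scale, adjusted p = 0.0456 by edgeR), *Gfap* at IM72h (-5.35, adjusted p = 0.026) and *Vim* at IM72h (-3.13, adjusted p = 0.033). For the last 2 the median over all genes was -0.98. By the labels fraction and mouse line cannot be told apart in the first, and in the last 2 the *ME* change crosses mouse lines.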

How the results depend on the processing

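The results for *Gfap*, *Nes* and *Vim* at IM3h kept their direction and their side of the threshold against naïve mice in both fractions under every alternative run, with 2 exceptions. In the joint fit of all 4 groups *Gfap* in *RiboTag* was 2.21 on the log2 scale without passing the test, and under the study's threshold (unadjusted p under 0.05 and at least 2-fold) *Vim* in *ME* (0.88) did not pass. *Gfap* at IM24h, close to 0 in both fractions, changed sign. In *RiboTag* it was -0.069 with median-of-ratios scaling, -0.58 by library totals, -0.99 with 3 reference genes (*Actb*, *Hsp90ab1*, *Rplp1*), -0.070 with DESeq2, -0.011 without rRNA genes and -0.0083 in the joint fit, and between -0.39 and 0.37 without single libraries. In *ME* it was -0.44 with 3 reference genes, -0.0083 without a filter and between -0.11 and 0.22 without single libraries. *Nes* in *RiboTag* at IM24h no longer passed by totals (1.62) or reference genes (0.98), and was between 2.36 and 2.92 without single libraries. In *RiboTag* at IM72h all 3 passed in the joint fit (*Gfap* -3.99, *Nes* 1.76, *Vim* -2.30) and under the study's threshold (-3.85, 1.78 and -2.33). *Gfap* (-5.99 and -5.37) and *Vim* (-3.95 and -3.99) passed by totals and reference genes, *Nes* with DESeq2 (1.92), and *Vim* lay between -3.70 and -1.99 without single libraries. In *ME* at IM72h *Gfap* (0.42) and *Vim* (0.065) no longer passed with reference genes, nor *Vim* (0.66) under the study's threshold.

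Between IM3h and IM24h, *Gfap* in *RiboTag* lost its call by totals (-2.66) and reference genes (-2.91), *Nes* in *ME* by totals (-0.10) and *Vim* in *ME* with reference genes (0.91). Without single libraries the *RiboTag* values ran from -2.58 to -1.83 for *Gfap*, -1.80 to -1.41 for *Nes* and -1.99 to -1.08 for *Vim*. *Nes* in *ME* between IM24h and IM72h was -0.52 without a filter and -0.71 to -0.48 without single libraries. For the difference of fractions, *Nes* at IM3h did not pass with median-of-ratios scaling (1.63) or reference genes (1.49) and ran from 1.45 to 2.02 without single libraries. At IM24h *Gfap* was -1.25 by totals, -0.55 with reference genes, -0.078 without rRNA genes and -0.59 to 0.36 without single libraries, *Nes* was -0.72 and -0.29 by totals and reference genes, and *Vim* passed by totals (-3.85) and DESeq2 (-2.58), running from -3.40 to -2.25. At IM72h *Gfap* was -4.59 with median-of-ratios scaling and -6.34 to -4.92 without single libraries, *Vim* ran from -4.60 to -2.78, and *Nes* was -1.67 and -0.42 by totals and reference genes.

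Against other glial genes, *Vim* in *ME* at IM72h was -0.033 relative to *Sox10* and *S100b*. The ratio of *Gfap* to glial genes at IM72h in *RiboTag* was 0.18 without IM72h library 2. The *Nes* to *Vim* ratio in *ME* at IM24h ran from -0.22 to 0.14 without single libraries. The causes were not tested.

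Scaling moved the median over all genes against naïve mice, by totals and by reference genes, to -0.24 and -0.45 (IM3h), -0.96 and -1.51 (IM24h) and -2.13 and -2.07 (IM72h) in *RiboTag*, and to -0.26 and -0.41, 0.66 and -0.35, and 0.62 and -0.58 in *ME*. The share of calls that were higher moved with it, in *ME* at IM72h from 50.9% to 81.2% and 20.1%. Counts of genes called against naïve mice differed by more than 1.5 times in *RiboTag* at IM3h (2134, and 548 with reference genes, 3325 under the study's threshold, 34 in the joint fit), at IM24h (76, and 1 by totals, 1 with reference genes, 858 with DESeq2, 238 without a filter, 1908 under the study's threshold, 47 in the joint fit and 153 without libraries 2 and 3, an alternative chosen after seeing the data) and at IM72h (2191, and 34 without a filter, 1334 without rRNA genes, 1258 in the joint fit). In *ME* they were 5020 and 2834 (study's threshold) at IM3h, 4740 and 2617 (reference genes) at IM24h and 9544 and 5439 (study's threshold) at IM72h. Between IM3h and IM24h they were 270 in *RiboTag*, and 87 by totals, 52 with reference genes, 1166 with DESeq2 and 613 without a filter, and 4465 in *ME*, and 8185 by totals and 1869 with reference genes. Between IM24h and IM72h they were 0, and 1, 9, 108 and 36 with median-of-ratios scaling, reference genes, DESeq2 and no filter in *RiboTag*, and 6272 and 4109 (reference genes) in *ME*. For the difference of fractions they were 292, and 39 with reference genes and 794 with DESeq2 at IM3h, 94, and 450, 56 and 859 by totals, reference genes and DESeq2 at IM24h, and 3843 and 7103 (totals) at IM72h, and for naïve *RiboTag* against *ME* 3842 and 2423 (reference genes). Without single libraries the counts against naïve mice ran from 1100 to 2849 (IM3h), 0 to 483 (IM24h) and 1288 to 3831 (IM72h) in *RiboTag* and from 2790 to 5972 in *ME* at IM24h. Those between IM3h and IM24h ran from 48 to 543 in *RiboTag* and 2601 to 5444 in *ME*, those of the difference of fractions from 80 to 662, 6 to 853 and 3133 to 6216 in order of time, and that of naïve *RiboTag* against *ME* from 1912 to 4685. No paired analysis was possible because the lines of the tables carry no replicate number. The values of *Gfap* at IM72h in *RiboTag* rest on at most 17 counts per library.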

Other observations

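The transcripts Nes-203 and Vim-206 were counted beside the other transcripts of their genes, with which they share the 3′ end, so reads of these libraries cannot separate them well. Nes-203 took 3.06% to 31.3% of *Nes* counts in naïve *ME*, 9.53% to 23.9% at IM3h, 7.09% to 42.2% at IM24h and 69.6% to 79.6% at IM72h. Vim-206 took 5.85% to 26% of *Vim* counts in naïve *ME* and 54.0% to 70.3% at IM72h. In *RiboTag*, Vim-206 took 22.2% to 46.5% in naïve libraries and 0.001% to 8.87% at IM3h, but 0% to 100% at IM72h, and Nes-203 took 2.62% to 79.6% in naïve libraries and 28.4% to 79.6% at IM72h. The shares thus varied widely within groups of *RiboTag*, and they had no test.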
